A study of Papio anubis with 40 samples.

Results

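The miR-15 and miR-16 family was followed in plasma of 8 olive baboons (Papio anubis) as 9 mature microRNAs: miR-16-5p, miR-15a-5p, miR-15b-5p, miR-195-5p, miR-497-5p, miR-424-5p and miR-503-5p, and the opposite hairpin arms miR-15b-3p and miR-16-2-3p. They were taken by name from a table of 2731 microRNA names, and all 9 were among the 318 rows with enough counts to be tested. None of them was joined with another name in a shared row. Each baboon gave 0.5 mL of plasma at 5 times: month 0, before menstrual tissue was placed in the peritoneal cavity to induce endometriosis, and months 3, 6, 9 and 15 after it. All 40 samples carry the same label for treatment, which is none, and the labels give neither age nor strain. No uninoculated animal was among the samples analysed here, so the effect of inoculation cannot be told apart from the passage of time. The submitters' design text calls the fluid serum, the sample labels plasma.

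A microRNA guides a silencing complex to messenger RNAs that pair with its seed, the short stretch near its 5′ end. The 7 members of the 5p arm belong to the miR-15 family, whose members share their core seed bases, and in mammals they repress cell cycle genes such as cyclins D and E and, for miR-15a and miR-16, the survival gene BCL2. They are made in pairs from shared transcripts: miR-15a with a copy of miR-16 in the DLEU2 transcript, miR-15b with the second copy of miR-16 inside SMC4, miR-497 with miR-195, and miR-424 with miR-503 on the X chromosome. Both copies give the same mature miR-16-5p, so its count cannot be divided between them, whereas miR-16-2-3p comes from the copy beside miR-15b. The DLEU2 pair is often lost in human chronic lymphocytic leukaemia. miR-16-5p is abundant in red cells, and its level in plasma is known to move with haemolysis.

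Total counts ran from 696873 to 5824111 per library, with a median of 1629264.5. Levels are given as CPM, which puts the counts of each library on 1 common total, after TMM scaling, a correction that sets the bulk of rows level between libraries. TMM-scaled values are not shares of a library. A count of 0 allows up to 3 counts, or 0.374 to 3.97 CPM depending on the library, and this floor covers counting error alone. The label of plasma was set beside red cell microRNAs: miR-451a and miR-486-5p, both red cell markers, were among the rows tested, and the red cell index described below ran from -3.43 to 1.49. The lowest index was that of the month 15 library of PA8872, which stood apart from the other 39. In the month 9 library of PA8001, miR-122-5p, the main hepatocyte microRNA, took 78.6% of counts, against a median of 4.90% over the 40 libraries.

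miR-16-5p had the highest mean level of the 318 rows, at 211565 ± 109444 CPM (SD, n = 40). It took between 3.78% of counts, in the month 9 library of PA8001 (95% Clopper-Pearson interval 3.76 to 3.80%, counting error alone), and 37.3%, in the month 9 library of PA8915 (37.2 to 37.3%), with a median of 20.0%. Within the 7 members of the 5p arm it made up 95.3 to 99.3% of counts. The other 6 together were thus a small part of the family's counts in every library. The family's summed share followed miR-16-5p, from 3.89 to 37.6% with a median of 20.4%.

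The members that followed lay far below. miR-15b-5p averaged 1710 ± 514 CPM, from 900 CPM in PA8001 at month 0 to 3191 CPM in PA8912 at month 6, with a median of 1635 CPM. miR-424-5p averaged 832 ± 531 CPM, from 353 CPM in PA8873 at month 15 to 3269 CPM in PA8003 at month 6, with a median of 679 CPM. miR-15a-5p averaged 824 ± 228 CPM, from 299 CPM in PA8872 at month 15 to 1371 CPM in PA8835 at month 15, with a median of 831 CPM. These 3 had at least 320 counts in every library. miR-503-5p averaged 298 ± 87.3 CPM, from 153 CPM in PA8912 at month 0 to 604 CPM in PA8872 at month 15, with a median of 287 CPM. miR-195-5p averaged 161 ± 78.0 CPM with a median of 160 CPM, miR-497-5p 58.8 ± 35.4 CPM with a median of 49.0 CPM, and miR-15b-3p 47.7 ± 18.1 CPM with a median of 45.8 CPM. miR-16-2-3p was the lowest member, with 18.4 ± 15.6 CPM and a median of 24.1 CPM.

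**Figure D1:**
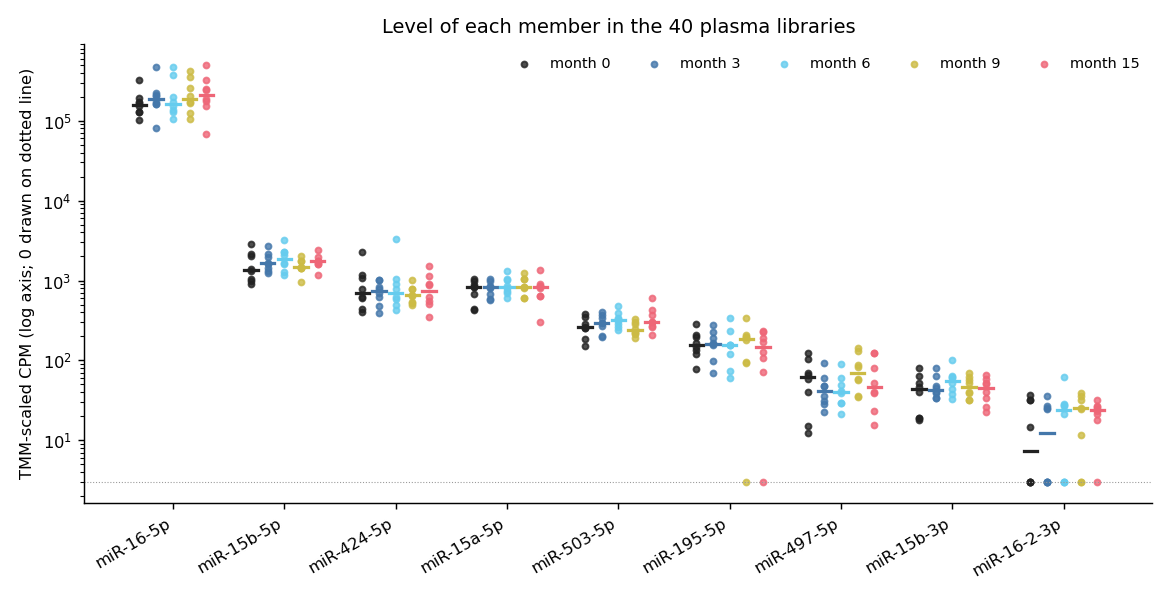
TMM-scaled CPM of the 9 members on a log axis, 1 point per library, coloured by month, with a bar at the median of the 8 baboons; counts of 0 are drawn on the dotted line. miR-16-5p lies between 69183 and 500315 CPM, with a mean of 211565 CPM, apart from the other 8. Each later month overlaps month 0 for every member, which was not counted for the other rows.

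The order of the members by level was tested between neighbours with an exact two-sided sign-flip test over the 8 baboons, each averaged over its 5 libraries, adjusted over 8 pairs. In 6 of the 8 pairs the member with the higher mean was higher in 8 of 8 baboons (adjusted p = 0.0104 by the exact test; the raw p of 0.00781 is the smallest that 8 baboons can give). The step from miR-16-5p to miR-15b-5p was the largest of the 8, at 6.85 ± 0.50 on the log2 scale (SD, n = 8). miR-424-5p and miR-15a-5p were not separated, with a mean log2 difference of -0.10 ± 0.43 (adjusted p = 0.539, exact test); miR-424-5p was the higher in 14 of 40 libraries. miR-497-5p and miR-15b-3p were not separated either, at 0.14 ± 0.65 (adjusted p = 0.539, exact test). Levels of different microRNAs in a ligated library depend also on how well each sequence takes the adapters, so this is an order within these libraries.

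The members differed in how they were read out at low counts. miR-16-2-3p had no count in 14 libraries and at least 15 counts in each of the other 26, with no library between. Its libraries at 0 numbered 4 at month 0, 4 at month 3, 3 at month 6, 2 at month 9 and 1 at month 15. All of them had total counts of 1880590, that of PA8003 at month 3, or less. The lowest total, 696873 in PA8873 at month 0, still gave 25 counts. The log2 total count at month 15 exceeded that at month 0 by 0.69 ± 0.91, higher in 7 baboons and lower in 1. Whether total count accounts for the fall in libraries at 0 was not tested. miR-15b-3p was counted in all 40 libraries, its lowest count being 15. miR-195-5p had no count in 2 libraries, PA8872 at month 9 and PA8914 at month 15, and at least 63 counts in the other 38. If these zeros reflect counting error alone, its level there was below 3.18 CPM in PA8872 and below 1.52 CPM in PA8914. Otherwise no upper limit on the level follows. Whether such zeros come from the counting or from the samples was not tested.

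Of the spread in log2 CPM of miR-16-5p, 52.0% lay between baboons, 3.63% between months and 44.4% in the rest, against medians of 31.7, 7.38 and 58.6% over the 318 rows. PA8914 had 403085 ± 76253 CPM of miR-16-5p (SD over its 5 libraries) and PA8001 had 142181 ± 54156 CPM. The values of PA8914 were 323289, 465177, 377813, 348834 and 500315 CPM from month 0 to month 15, and it was the highest baboon at months 0, 3 and 15. For miR-424-5p 45.8% lay between baboons, for miR-497-5p 43.9%, for miR-503-5p 40.3% and for miR-16-2-3p, with its libraries at 0, 33.3%. The share between baboons was lower for miR-15b-5p (22.5%), miR-15a-5p (18.8%), miR-195-5p (17.7%) and miR-15b-3p (8.67%). That of miR-195-5p was 41.5% over the 38 libraries in which it was counted. Chance alone also gives baboons and months a share, which was not taken away from these values. miR-503-5p had the largest share of any member between months, 17.4%, with its highest value in PA8872 at month 15. Its SD over the libraries, 0.40 in log2 CPM, was among the lower ones, with 5.97% of the 318 rows having a smaller SD.

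Months 3, 6, 9 and 15 were each compared with month 0, which the study takes as its base. None of the 9 members was called at any month, at an adjusted p under 0.05 by edgeR's quasi-likelihood test with baboon as a block. Of the 318 rows, 0 (0.0%) were called at month 3, 0 (0.0%) at month 6, 0 (0.0%) at month 9 and 13 (4.09%) at month 15, and 3 (0.943%) in a test of any month. DESeq2 and limma-voom also called 0 members in each of these comparisons. At month 15 they called 18 and 13 of the 318 rows. At an unadjusted p under 0.05, edgeR had 0 members at month 3, 1 at month 6, 0 at month 9 and 1 at month 15, each time miR-503-5p. Of all 318 rows, 5, 11, 11 and 40 had such a p at these months. For every member and month the 8 values overlapped those of month 0. Overlap was not counted for the other rows, so whether this is particular to the family is not known. The 4 comparisons share the month 0 libraries.

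miR-16-5p ranged from 102194 to 323289 CPM at month 0 with a median of 158567, from 80472 to 465177 CPM at month 3 with a median of 186648, and from 105008 to 469081 CPM at month 6 with a median of 162739. At month 9 it ranged from 105624 to 418900 CPM with a median of 188048, and at month 15 from 69183 to 500315 CPM with a median of 212384. It was higher than at month 0 in 4 of 8 baboons at month 3 and in 7 of 8 at each of months 6, 9 and 15. The exception at month 15 was PA8872, at 69183 CPM against 193081 CPM at month 0. Its log2 changes were 0.29 (SE 0.26) at month 3, 0.29 (SE 0.26) at month 6, 0.41 (SE 0.26) at month 9 and 0.45 (SE 0.26) at month 15, the last with an adjusted p of 0.495 by edgeR. Over the alternatives the month 15 value ran from 0.27 to 0.74, with adjusted p from 0.0822 to 0.945. Single baboons moved these values by more than 1.5 times: month 3 was 0.09 without PA8001 and 0.15 without PA8912, month 6 was 0.06 without PA8873, month 9 was 0.21 without PA8915, and month 15 was 0.27 without PA8873 and 0.27 without PA8914. Without the month 15 library of PA8872 the month 15 value was higher, at 0.54 (SE 0.24, unadjusted p = 0.0304, adjusted p = 0.371 by edgeR).

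miR-503-5p, which in mammals restrains cyclin D1 and is made with miR-424, had medians of 259 CPM at month 0 (153 to 381), 295 CPM at month 3 (195 to 403) and 324 CPM at month 6 (240 to 483). At month 9 the median was 239 CPM (188 to 326) and at month 15 it was 304 CPM (207 to 604). It was higher than at month 0 in 6 of 8 baboons at months 3, 6 and 15 and in 3 of 8 at month 9. The log2 change was 0.35 at month 6 (SE 0.17, unadjusted p = 0.0481, adjusted p = 0.990 by edgeR) and 0.37 at month 15 (SE 0.17, unadjusted p = 0.0391, adjusted p = 0.355). The highest of the 40 values, 604 CPM, was that of PA8872 at month 15, the library with the lowest miR-16-5p and miR-15a-5p. Without that library the month 15 change was 0.14 (SE 0.17, unadjusted p = 0.429 by edgeR), and without PA8873 it was 0.22. Without the month 6 library of PA8912 the month 6 change was 0.20 (SE 0.19). In the test of any month miR-503-5p had an adjusted p of 0.567 by edgeR.

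Its partner miR-424-5p had medians between 654 and 747 CPM at the 5 times, and its log2 changes all lay within 1 SE of 0. miR-15b-5p had medians from 1348 CPM at month 0 to 1870 CPM at month 6, where its log2 change was 0.32 (SE 0.21) and 5 of 8 baboons were higher. In the same month miR-15b-3p had a log2 change of 0.46 (SE 0.31) and miR-15a-5p of 0.23 (SE 0.22), each with 5 of 8 baboons higher. Without the month 6 library of PA8912 the values were 0.13 for miR-15b-5p and 0.21 for miR-15b-3p, both within 1 SE of 0. That of miR-15a-5p was 0.09, 0.15 and 0.08 without PA8001, PA8003 and PA8873. miR-497-5p had a log2 change of 0.47 (SE 0.35) at month 9, with 5 of 8 baboons higher, and 0.19 without PA8001. The value for miR-16-2-3p at month 15 was 1.56 with an SE of 1.31, the widest error of any member in these comparisons. This value rests on the libraries without a count, all of which had total counts of 1880590 or less. The other 25 of the 36 values lay within 1 SE of 0 and are not read for direction.

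**Figure D2:**
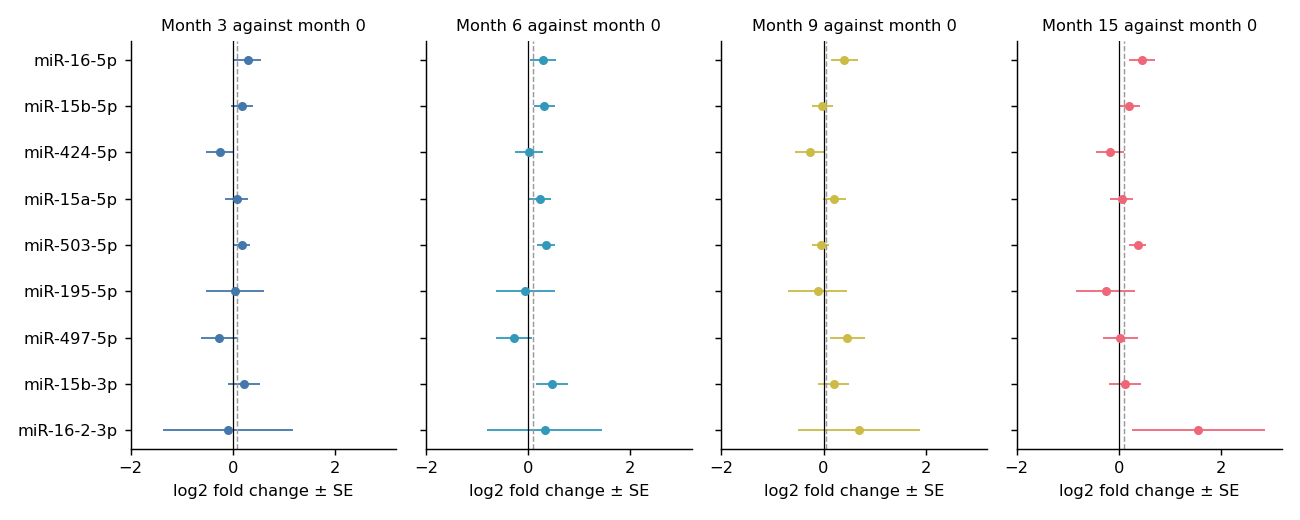
Log2 fold change of each member against month 0 with its SE, from the edgeR fit of 40 libraries with baboon as a block; the dashed line is the median of the 318 rows. No member was called at any month, and miR-16-2-3p has the widest errors.

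The direction of the family as a whole depended on scaling, as did that of all 318 rows. With TMM 6, 7, 5 and 7 of the 9 members lay above 0 at months 3, 6, 9 and 15, with median log2 changes of 0.078, 0.293, 0.198 and 0.116, while the medians of all 318 rows were 0.0795, 0.102, 0.0541 and 0.107. With the size factors of DESeq2 in the same fit, 4, 6, 5 and 4 members lay above 0, and the family's medians at months 3 and 15 were -0.0005 and -0.0187. With library totals alone 2, 6, 3 and 5 lay above 0. Of the 318 rows, 205, 200, 189 and 189 lay above 0 with TMM. With the DESeq2 size factors 160, 169, 167 and 159 rows did, and with library totals 102, 144, 75 and 167. Changes of the members are therefore read by their tests and not by sign.

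Ratios of members within a library do not depend on scaling, so pairs from shared hairpins, shared transcripts and paralogs were compared as log2 ratios of counts plus 0.5. None of the 24 comparisons with month 0 passed after adjustment (smallest adjusted p = 0.375 by the exact two-sided sign-flip test over 8 baboons). The arms miR-15b-5p and miR-15b-3p stood at a median ratio of 34.5, from 25.4 to 60.6 over the 40 libraries. Their log2 ratio was 5.29 ± 0.34 at month 0 and 5.01 ± 0.32 at month 9, lower in 7 of 8 baboons, with a difference of -0.29 ± 0.21 (SD, n = 8; exact p = 0.0156). miR-16-5p exceeded miR-15a-5p by a median of 222 times, from 116 in PA8003 at month 6 to 578 in PA8914 at month 15. That log2 ratio was 7.78 ± 0.44 at month 0 and 8.12 ± 0.62 at month 15, higher in 6 of 8 baboons (difference 0.34 ± 0.38, exact p = 0.0469, adjusted p = 0.562).

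The paralogs miR-15b-5p and miR-15a-5p stood at a median ratio of 1.95, from 1.39 to 4.53. The highest ratio was in PA8912 at month 6, the library with the highest total count and the highest levels of miR-15b-5p, miR-15b-3p and miR-16-2-3p, where miR-15a-5p was at 704 CPM. The cotranscribed pair miR-424-5p and miR-503-5p had a median ratio of 2.60, from 0.975 in PA8914 at month 3 to 7.61 in PA8912 at month 0. Its log2 ratio was 1.62 ± 0.85 at month 0 and 1.17 ± 0.74 at month 15, higher in 4 and lower in 4 of 8 baboons. The other cotranscribed pair, miR-195-5p and miR-497-5p, had a median ratio of 2.71.

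The family was next set beside a red cell index, since miR-16-5p is used as a red cell microRNA in plasma. The index was the log2 CPM of miR-451a, which is made in erythroid cells, minus that of miR-23a-3p/23b-3p, which is used as a reference that haemolysis leaves level. It used no member. The index averaged 0.01 ± 1.06 at month 0, -0.16 ± 0.76 at month 3, -0.14 ± 0.43 at month 6, 0.06 ± 0.98 at month 9 and -0.82 ± 1.47 at month 15 (SD, n = 8). The difference at month 15 was -0.83 ± 1.67 (adjusted p = 0.312, exact sign-flip test), and over the 7 baboons other than PA8872 it was -0.26 ± 0.45, lower in 4. The log2 total count was higher at month 15 by 0.69 ± 0.91 (adjusted p = 0.312, exact test).

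With baboon and month in the fit, 29 of 318 rows (9.12%) were called with the index, and 22 (6.92%) were higher with it, among them miR-451a itself, which is part of the index. Of the 9 members 4 were called, all higher. miR-15a-5p rose by 0.39 in log2 per unit of the index (SE 0.069, adjusted p = 0.000273 by edgeR). miR-16-5p rose by 0.41 (SE 0.092, adjusted p = 0.00270), miR-15b-5p by 0.26 (SE 0.077, adjusted p = 0.0293) and miR-15b-3p by 0.37 (SE 0.12, adjusted p = 0.0422). The DLEU2 and SMC4 members thus passed, apart from miR-16-2-3p at 0.79 (SE 0.64, adjusted p = 0.633). miR-503-5p was at -0.12 (SE 0.065, adjusted p = 0.325), and miR-195-5p, miR-424-5p and miR-497-5p lay within 1 SE of 0. Over the 38 libraries in which it was counted, miR-195-5p was at 0.32 (SE 0.12, adjusted p = 0.111). The index can rise through more miR-451a or less miR-23a-3p/23b-3p. With baboon means taken away, Pearson r with these rows was 0.187 and -0.425 for miR-16-5p. It was 0.468 and -0.346 for miR-15a-5p, 0.677 and 0.242 for miR-15b-5p, and 0.664 and 0.148 for miR-15b-3p. Without the month 15 library of PA8872, miR-16-5p had -0.106 with miR-451a. The part of each row in these calls was not tested.

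These calls leaned on 1 baboon. Without PA8872 none of the 9 members was called, and the rows called fell from 29 to 11 of 318. The log2 changes per unit of miR-15a-5p, miR-16-5p, miR-15b-5p and miR-15b-3p were 0.31, 0.33, 0.18 and 0.26. Their adjusted p by edgeR were then 0.0583, 0.177, 0.443 and 0.458. Without the month 15 library of PA8872 alone, 17 of 325 rows were called. Among them miR-15a-5p was the 1 member (0.37, adjusted p = 0.00664), and miR-16-5p stood at 0.35 (adjusted p = 0.0507). With miR-486-5p in place of miR-451a in the index, 48 of 318 rows were called. Of these, 2 were members: miR-16-5p at 0.26 (adjusted p = 0.00107) and miR-15a-5p at 0.18 (adjusted p = 0.0211). miR-15b-5p was then at 0.011 (adjusted p = 0.927) and miR-15b-3p at 0.0037 (adjusted p = 0.981). Over all alternatives miR-15a-5p passed in 23 of 24, miR-16-5p in 21 of 23, miR-15b-5p in 17 of 24 and miR-15b-3p in 14 of 24.

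**Figure D3:**
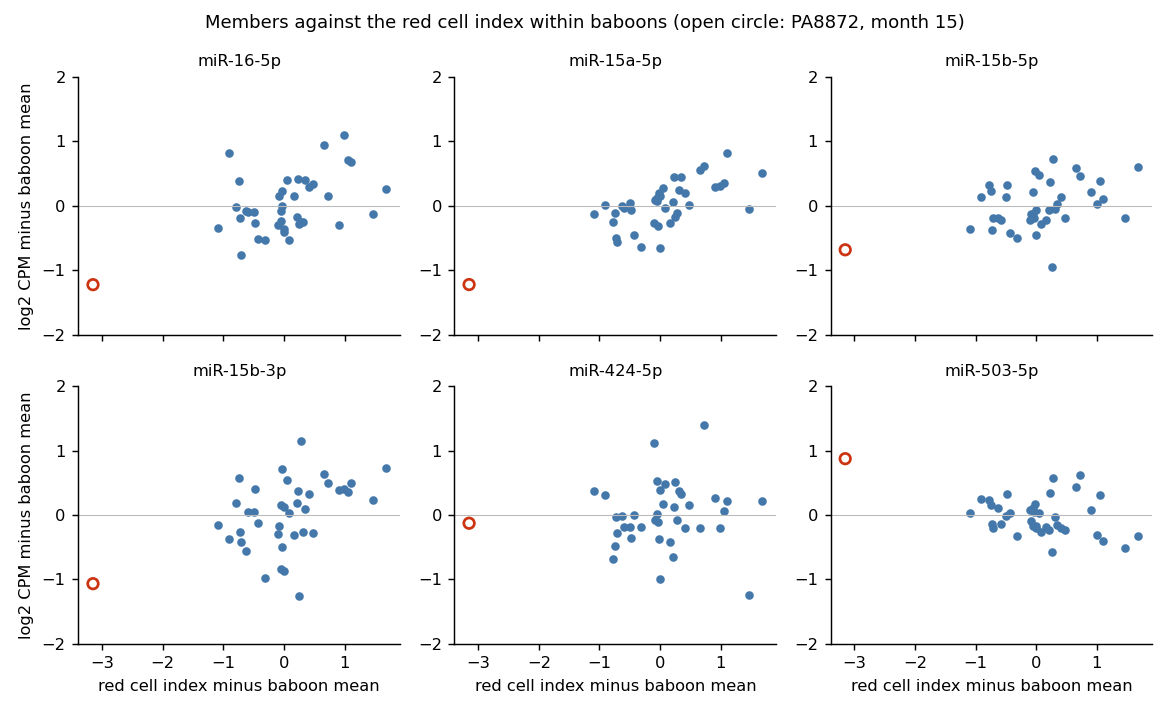
Log2 CPM of 6 members against the red cell index, each with the mean of its baboon taken away, 1 point per library; the open circle is the month 15 library of PA8872. That library has the lowest index and, of the points of miR-16-5p and miR-15a-5p, the lowest value, while for miR-503-5p it has the highest.

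Within baboons, the slope on the index over 5 libraries was positive in 8 of 8 baboons for miR-15a-5p, in 7 of 8 for miR-16-5p and miR-15b-3p and in 6 of 8 for miR-15b-5p. It was positive in 4 of 8 for miR-424-5p and in 3 of 8 for miR-503-5p. Whether members differed from each other in this was tested on ratios within a library, a test added after these results were seen, with 12 ratios and an exact two-sided sign-flip test over the 8 slopes. The log2 ratio of miR-16-5p to miR-503-5p rose with the index in 8 of 8 baboons, by 0.40 ± 0.45 per unit (adjusted p = 0.0469, exact test), and so did that of miR-15a-5p to miR-503-5p, by 0.40 ± 0.22 (adjusted p = 0.0469). Without the month 15 library of PA8872 these were 0.38 and 0.41, with the same adjusted p of 0.0469. With the index from miR-486-5p they were 0.27 (adjusted p = 0.0938, exact test) and 0.23 (adjusted p = 0.156), so neither passed. When any 1 of the 8 baboons was left out neither passed, with adjusted p of 0.0625 or more, since 7 baboons cannot give a raw p as small. The ratios of miR-16-5p and miR-15a-5p to miR-424-5p did not pass, at 0.26 ± 0.64 (adjusted p = 0.469, exact test) and 0.25 ± 0.38 (adjusted p = 0.203).

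**Figure D4:**
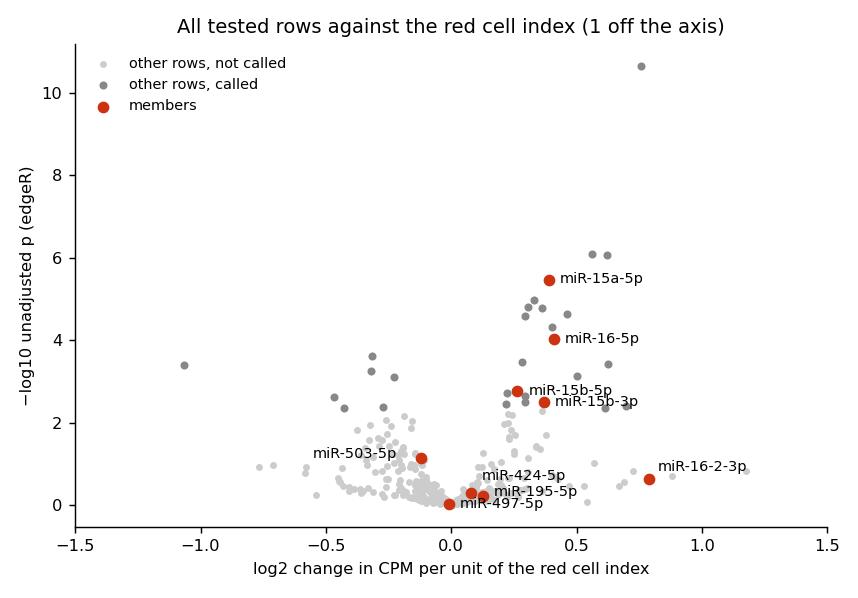
Log2 change per unit of the red cell index against the −log10 of the unadjusted p by edgeR, for the 318 rows, with the 9 members in red. miR-15a-5p, miR-16-5p, miR-15b-5p and miR-15b-3p are among the 29 rows called.

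Other rows called with the index included the erythroid miR-144-3p (0.76 in log2 per unit) and miR-486-5p (0.56), and miR-93-5p and miR-20a-5p of the miR-17 clusters (0.29 and 0.31). Of 11 erythrocyte markers 7 were tested and 4 were called higher, with a median of 0.50 over the 7, counting miR-451a. The other 4 erythrocyte markers had counts too low to test, from 5 counts in all for miR-96-5p to 226 for miR-183-5p. Of 10 platelet markers, all tested, 2 were called lower, miR-28-3p (-0.32) and miR-151a-3p (-0.23), with a median of -0.20, against a median of -0.0258 over all 318 rows. None of the 6 lymphocyte, 5 liver or 10 endothelial and stromal markers was called. The summed CPM of the 7 erythrocyte markers ran from 75757 to 222696 at month 0 and from 29018, in PA8872, to 155641 at month 15. That of the 10 platelet markers ran from 85583 to 151270 at month 0 and from 111063 to 219969 at month 15. At month 15 the tested erythrocyte markers had a median log2 change of -0.43, with 1 of 7 above 0 and 0 called, and the platelet markers had 0.41, with 8 of 10 above 0 and 1 called. In the same month 2 of 6 lymphocyte markers were called lower, miR-181a-5p (-0.65) and miR-342-3p (-0.81), as was 1 of 10 endothelial and stromal markers, miR-100-5p (-1.16), and none of the 5 liver markers was called. Without the month 15 library of PA8872 the medians were -0.35 for the erythrocyte and 0.25 for the platelet markers, with 0 called in each, 1 lymphocyte marker was called lower and no endothelial and stromal marker was. With the index, leaving it out gave 3 erythrocyte markers called higher and 3 platelet markers called lower. In plasma, fewer cells of a type and less RNA per cell cannot be told apart, and the part of these markers in the members' values was not tested.

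Correlations between members describe the 40 libraries after the mean of each baboon is taken away; the values share library, scaling and depth. The arms miR-15b-5p and miR-15b-3p were the closest pair (r = 0.872). miR-16-5p followed miR-15a-5p (r = 0.728) and miR-15b-5p (r = 0.552), and miR-15a-5p followed miR-15b-5p (r = 0.662). The other SMC4 member, miR-16-2-3p, with its 14 libraries at 0, had r from 0.313 to 0.527 with these 4. The cotranscribed pair miR-424-5p and miR-503-5p had r = 0.162. miR-497-5p had r = 0.452 with miR-424-5p and -0.347 with miR-503-5p, and miR-15b-5p had 0.42 with miR-503-5p.

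The values of miR-195-5p turned on its 2 libraries at 0. With miR-497-5p, made from the same transcript, it had r = 0.136 over 40 libraries and 0.57 over the 38 in which it was counted. With miR-16-5p it had -0.0416 over 40 and 0.736 over 38, and with miR-15a-5p -0.0918 and 0.535. Leaving out the month 15 library of PA8872 moved the value of miR-15b-5p with miR-503-5p from 0.42 to 0.72, that of miR-16-5p with miR-503-5p from -0.0429 to 0.253, and that of miR-16-5p with miR-15a-5p from 0.728 to 0.639.

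The red cell rows were not followed alike. miR-16-5p had r = 0.624 with miR-486-5p, 0.187 with miR-451a and -0.425 with miR-23a-3p/23b-3p. With the same rows miR-15b-5p had r = 0.216, 0.677 and 0.242, so it was closer to miR-451a than to miR-486-5p. miR-15b-3p resembled it in this (0.228, 0.664 and 0.148). miR-15a-5p had 0.661, 0.468 and -0.346. Without the month 15 library of PA8872, r with miR-451a was -0.106 for miR-16-5p, 0.223 for miR-15a-5p and 0.632 for miR-15b-5p, and r with miR-486-5p was 0.523, 0.55 and 0.078. miR-503-5p had r = -0.417 with miR-486-5p and 0.458 with the reference row, or -0.24 and 0.429 without that library.

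**Figure D5:**
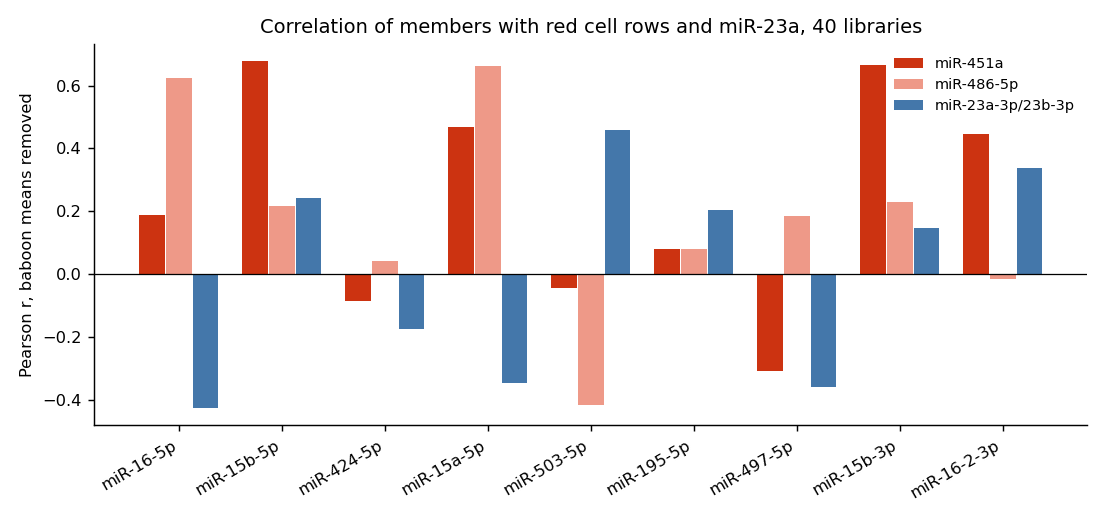
Pearson correlation of each member with miR-451a, miR-486-5p and miR-23a-3p/23b-3p over 40 libraries, with baboon means taken away. miR-16-5p is closer to miR-486-5p (0.624) than to miR-451a (0.187), and miR-15b-5p is closer to miR-451a (0.677) than to miR-486-5p (0.216); the value of 0.187 is -0.106 without the month 15 library of PA8872.

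By the same measure, the 3 rows most like each member among the 318 were taken. For miR-16-5p they were miR-93-5p (r = 0.822), the joined row of miR-550a and miR-550b arms (0.765) and miR-106a-5p/17-5p (0.749), and for miR-15a-5p they were miR-93-5p (0.861), miR-142-5p (0.852) and miR-20a-5p (0.843). miR-15b-5p was nearest to its own opposite arm, then to miR-25-3p (0.822) and miR-140-3p (0.726), and miR-15b-3p had miR-25-3p (0.793) and miR-186-5p (0.677) after its own. miR-503-5p was nearest to miR-223-3p (0.759), a microRNA of neutrophils and platelets, then miR-4676-5p (0.674) and miR-223-5p (0.67). miR-497-5p was nearest to miR-199a-3p/199b-3p (0.801), miR-125a-5p (0.796) and miR-125b-5p (0.709). miR-424-5p had miR-338-3p (0.665), miR-34a-5p (0.621) and miR-769-5p (0.582). For miR-195-5p the nearest were miR-138-5p (0.571), miR-92a-1-5p (0.567) and miR-125a-3p (0.522) over 40 libraries, and let-7b-5p (0.742), miR-16-5p (0.736) and miR-199a-3p/199b-3p (0.711) over the 38 in which it was counted. For miR-16-2-3p they were miR-140-3p (0.716), let-7d-3p (0.657) and miR-1226-3p (0.595).

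The other arms and wider relatives were mostly not read. Of 13 names, held in 11 rows, 2 rows were tested: miR-424-3p and the joined row of miR-103a-3p and miR-107, both with counts in 40 libraries. Neither was called at any month or with the index, with which their log2 changes were 0.10 (SE 0.092) and 0.10 (SE 0.065). miR-424-5p exceeded miR-424-3p by a median of 3.63 times, from 1.22 to 6.92. miR-15a-3p had 96 counts over 16 libraries and miR-195-3p had 31 over 9. miR-16-1-3p, the opposite arm of the DLEU2 copy of miR-16, had no count in any library, as did miR-497-3p and miR-503-3p.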

How the data were processed

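The authors deposited raw counts, whole numbers for each named mature microRNA, whose sums differ between libraries. Per the labels' protocols, RNA from 0.5 mL of plasma was ligated to adapters, cDNA received molecular identifiers and libraries ran on a NovaSeq X. Whether identifiers or reads were counted is unstated, and no aligner is given in the sources used here. The submitters' processing notes name R 4.5.0, edgeR and limma. Names are human ones, and no coordinates or sequences were used.

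All 40 libraries entered 1 edgeR 4.0.16 quasi-likelihood fit (limma 3.58.1, R 4.3.3) with TMM factors, month and baboon, after filterByExpr (minimum count 10, minimum total 15) kept 318 of 2731 rows. P-values were two-sided and Benjamini-Hochberg adjusted over these rows, with a threshold of 0.05. Single values used exact sign-flip tests over the 8 baboons (scipy 1.17.1). DESeq2 1.42.0 and limma-voom were alternatives, as were other scalings, filters, covariates and leaving out baboons. Log2 changes within 1 SE of 0 are counted without direction. The fit was tested on simulated data.

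The labels give the baboon of each library, which is the block: deviations from the month mean correlated across rows at 0.208 on average within a baboon and -0.029 between baboons. None of the libraries was identical to another. Samples of a group are separate animals. Every member is named, with the 3 rows nearest to each and up to 4 members of each list by p. The members and lists (erythrocyte, platelet, lymphocyte, liver, endothelial and stromal, and relatives) were chosen with earlier results of these data known.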

Additional observations from a re-analysis of the deposited data

Results flagged for a closer look

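In 9 of 75 groups of 8 baboons checked, the highest or the lowest value was set apart from the other 7 by a gap that, as a share of the range, exceeded Dixon's 95% critical value; chance sets apart about 1 in 20 groups. Of these, 6 rest on libraries without a count of 1 member. The log2 CPM of miR-195-5p was 0.0808, a count of 0, in PA8872 at month 9, where the other 7 baboons ranged from 6.56 to 8.39. It was also 0.0808 in PA8914 at month 15, against 6.20 to 7.89. The log2 ratio of miR-195-5p to miR-497-5p was accordingly -6.07 and -6.54 in these libraries. The log2 CPM of miR-16-2-3p was 0.0808, a count of 0, in PA8872 at month 15, against 4.24 to 5.06 in the others, and its log2 ratio to miR-15b-5p, given as miR-15b-5p over miR-16-2-3p, was 12.6.

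The other 3 were high values on many counts. miR-424-5p had a log2 CPM of 11.7, from 4141 counts, in PA8003 at month 6, against 8.75 to 10.0 in the others. The log2 ratio of miR-15b-5p to miR-15a-5p was 2.18 in PA8912 at month 6, against 0.67 to 1.36, and that of miR-15b-5p to miR-15b-3p was 5.60 in PA8914 at month 6, against 4.88 to 5.22. Causes were not tested.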

How the results depend on the processing

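No member was called at any month under any of the 24 alternatives to each comparison. The number of rows called moved more. At month 3 it was 2 with no low-count filter and 1 by DESeq2, at month 6 it was 1 and 1, and at month 9 it was 2 and 1. At month 15, against 13, it was 4 with library totals alone, 8 with miR-122-5p taken out, 2 in a fit with no replicate block for the baboon, 3 with the red cell index in the fit, 2 with log2 total count in it, 4 without the month 15 library of PA8872, and 2 to 20 leaving out each baboon in turn. For any month, against 3, it was 0 with upper-quartile factors, with library totals and with the index as a covariate, 15 with no filter, 7 by DESeq2, 1 with log2 total count, and 0 to 4 without each baboon. With the red cell index 29 rows became 14 with library totals, 17 with no filter, 48 with miR-486-5p in the index, 17 without the month 15 library of PA8872 and 11 to 31 without each baboon. The 4 members called with the index became 2 with library totals, no filter, miR-122-5p taken out or miR-486-5p in the index, 1 without the month 15 library of PA8872, and 0 to 4 without each baboon. The alternatives that leave out the month 15 library of PA8872, the month 6 library of PA8912 or the libraries with no miR-195-5p, also for correlations, spread, lists and the index, were chosen after seeing the data.

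Log2 changes within 1 SE of 0 were left out of the count of turned signs. With the size factors of DESeq2, 4 members lay above 0 at month 15, against 7, and 159 of the 318 rows, against 189. Among the other values signs turned in 4 cases, none of them past its threshold in the first place. The change of miR-16-2-3p with the index, 0.79, became -0.13 with miR-486-5p in the index and ran from -0.00057, without PA8872, to 1.16 when each baboon was left out in turn. That of miR-503-5p, -0.12, became 0.0052 without the month 15 library of PA8872. The log2 difference of miR-424-5p minus miR-15a-5p, -0.10, was 0.11 in the month 0 libraries alone. The cause was not tested. The 80 alternative values for slopes of ratios include ratios that had not passed in the first place. Only those of miR-16-5p and miR-15a-5p to miR-503-5p had passed, and 18 of their alternative values no longer did. Neither passed when any 1 baboon was left out, nor with miR-486-5p in the index. Precision is limited by 8 animals and, for miR-16-2-3p, by libraries without a count.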
